A study of Mus musculus with 44 samples.

Results

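The genes described here encode feedback inhibitors, response genes and a GTPase of the Ras-ERK pathway, and were followed across mouse Eµ-myc lymphomas. They were chosen by name: the phosphatases Dusp6 and Dusp4, the inhibitors Spry1, Spry2, Spred1 and Spred2, the transcription factors Etv5 and Egr1, the response gene Phlda1, and Nras. Of these 10 genes, 9 had at least 1 probe set of their own on the array, 16 probe sets in all, among 12393 genes with such a probe set. Dusp4 was not analysed here. A filter on low signal (at least 1 array above the median of its set) kept 8712 genes, 8 of the 9 among them. The probe set used for Spry2 did not pass and is described separately.

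Total RNA from 43 samples labelled lymphoma and 1 labelled spleen was measured on Affymetrix mouse arrays with 1 sample on each, and the expression values are on the log2 scale of the RMA method. All 44 samples carry the Eµ-myc genotype, a Myc transgene under the immunoglobulin heavy chain enhancer, which is active in B lineage cells. The labels name no treatment, age or sex, do not tell frozen tissue from frozen cell pellets, and mention neither the animal of origin nor whether the spleen held disease. P-values therefore measure the spread between these samples, and there was no lymphoma without the transgene and no Ras mutant or inhibitor control.

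In the Ras-ERK pathway, growth factor, cytokine or antigen receptors load RAS proteins with GTP, and RAS then activates the RAF, MEK and ERK kinases in turn. Active ERK induces immediate early genes such as Egr1 and, more slowly, its own inhibitors: DUSP6 removes phosphate from ERK, and Sprouty and SPRED proteins act further up, SPRED1 by bringing the RAS GTPase activating protein neurofibromin to the membrane. In B lineage cells the same pathway lies downstream of the precursor B cell receptor, the mature B cell receptor and cytokine receptors. Transcript levels of these genes are often read as a sign of pathway output, but an array measures neither phosphorylated ERK nor mutations.

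The 250 bases upstream of the annotated start are shown for the 3 inhibitors whose levels moved together most closely in the lymphomas and for Nras, which passed in no pair with them. They are RefSeq sequences of the GRCm38.p6 assembly, written 5′ to 3′ on the strand of the gene, with matches to the motifs searched in capitals. Dusp6 lies at chr10:99262981-99263230, Spred1 at chr2:117120821-117121070, Spred2 at chr11:19924192-19924441 and Nras at chr3:103058035-103058284, all on the plus strand.
Dusp6: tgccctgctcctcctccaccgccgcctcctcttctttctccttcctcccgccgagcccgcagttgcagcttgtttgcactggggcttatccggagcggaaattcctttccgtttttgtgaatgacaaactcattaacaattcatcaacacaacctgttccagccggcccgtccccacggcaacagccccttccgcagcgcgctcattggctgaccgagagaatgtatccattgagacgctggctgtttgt
Spred1: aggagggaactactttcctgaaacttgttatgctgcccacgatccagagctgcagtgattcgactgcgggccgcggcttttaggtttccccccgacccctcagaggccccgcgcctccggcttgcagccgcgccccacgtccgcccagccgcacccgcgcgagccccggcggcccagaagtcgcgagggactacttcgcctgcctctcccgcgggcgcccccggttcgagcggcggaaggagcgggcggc
Spred2: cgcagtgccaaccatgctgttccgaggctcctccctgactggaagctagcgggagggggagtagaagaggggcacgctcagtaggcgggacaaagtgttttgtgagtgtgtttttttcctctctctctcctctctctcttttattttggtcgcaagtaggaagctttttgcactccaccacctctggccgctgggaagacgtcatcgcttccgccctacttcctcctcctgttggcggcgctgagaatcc
Nras: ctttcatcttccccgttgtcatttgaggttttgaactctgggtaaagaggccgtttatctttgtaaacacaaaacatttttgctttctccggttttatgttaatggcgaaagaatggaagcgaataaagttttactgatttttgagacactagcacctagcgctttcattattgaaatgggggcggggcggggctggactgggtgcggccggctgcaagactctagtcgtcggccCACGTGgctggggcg
The motifs searched on both strands were CCGGAA, an ETS factor core, TGACGTCA, the cAMP response element, TGAGTCA, the AP-1 site, CACGTG, the E-box that MYC binds, and the serum response CArG box. None of them is contained in another. In the same window CCGGAA occurs in 12% of 32851 annotated mouse promoters, TGACGTCA in 1.55%, TGAGTCA in 4.46%, CACGTG in 6.02% and the CArG box in 1.47%. The Nras sequence holds 1 match, an E-box that starts 15 bases before the transcription start. None of these letters stands in the other 3 windows, nor in those of Spry1, Spry2 and Etv5. No window of Egr1, Phlda1 or Dusp4 was looked at here.

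The column medians formed 2 separate ranges. Set 1 holds 36 lymphomas, D34 to D117 by their titles, with medians of 6.22 to 6.46, and set 2 holds the other 7 lymphomas and the spleen, with medians of 6.86 to 7.02. A raw value of one set cannot be read against the other, so levels are given per set, and every comparison used values minus the set mean or carried the set as a covariate. Each lymphoma had 6 to 9 of 9 B lineage markers above the median of its set, with a median of 8. The spleen had 8. Of 10 erythroid markers the lymphomas had 0 to 2 above that median and the spleen all 10. These are bulk samples, in which fewer cells of a type and less RNA per cell cannot be told apart.

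The levels of Dusp6, the ERK phosphatase, spread more widely over the lymphomas than those of nearly all other genes. In set 1 they ran from 5.43 in lymphoma D92 through a median of 7.59 to 11.43 in lymphoma D62, and in set 2 from 6.13 in lymphoma D121 through 8.78 to 11.85 in lymphoma D161. The SD of the set-centred level was 1.46 (n = 43), higher than for 98.2% of the 8712 genes, whose median SD was 0.334. The high end was made by 5 lymphomas, namely D48, D57, D62, D72 and D161, which stood 2.64 to 3.53 above their set mean, while the next one, lymphoma D59, stood at 1.30.

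The Spred genes, whose products block activation of RAS and RAF, had the same 5 lymphomas on top. Spred1 ran from 5.05 through a median of 6.09 to 8.59 in set 1 and from 6.52 through 7.18 to 9.07 in set 2, with an SD of 0.88 (n = 43). Spred2 ran from 5.22 through 7.21 to 10.23 in set 1 and from 7.87 through 8.04 to 9.95 in set 2, with an SD of 0.99. For Spred1 the 5 lymphomas lay 1.74 to 2.30 above the set mean and lymphoma D59 at 1.29. For Spred2 they lay 1.64 to 2.84 above it and the next one, lymphoma D52, at 1.0. The 5 were picked out by the levels of these genes, so each gap is a description. The share of all genes with such a gap is not given. The 3 Spred1 probe sets moved together over the lymphomas (r = 0.949 to 0.982), whereas the second Spred2 probe set was flat and never passed the median of its set (r = -0.116 with the one used).

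The Sprouty genes encode inhibitors that act near receptors and RAF. Spry1 passed the median of its set on 9 arrays, with a median of 5.59 and a maximum of 7.25 in set 1 and of 6.29 and 7.58 in set 2, and an SD of 0.60. Lymphoma D59 was the highest in Spry1 at 1.49 above its set mean, and the 5 lymphomas took ranks 2 to 6 at 0.83 to 1.18. The Spry2 probe set with the highest mean, used by rule, never passed the median of its set (SD 0.23) and correlated with the other one at r = 0.231. That other probe set passed the median of its set on 6 arrays. Its set 1 values ran from 3.85 through 4.31 to 8.03 and its set 2 values from 4.2 through 4.55 to 8.93, with an SD of 1.33. On it lymphomas D48, D57, D62, D72 and D161 stood 2.79 to 3.81 above their set mean, lymphoma D59 at 3.02 and the next, lymphoma D56, at 1.18. Because of this gene a second choice, the probe set with the largest SD of each gene, was added after the values had been seen, and some of its values are given below as a description.

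Etv5, an ETS factor that ERK signalling induces, had the same 5 lymphomas on top on both of its probe sets (r = 0.819). On the more variable one, set 1 ran from 4.04 through 4.66 to 6.74 and set 2 from 4.01 through 4.68 to 6.79, and the SD was 0.70. The 5 lymphomas lay 1.49 to 1.93 above their set mean and the next, lymphoma D78, at 0.50. Phlda1, a pleckstrin homology domain protein induced by ERK, ran from 5.48 through 6.98 to 9.24 in set 1 and from 5.89 through 6.87 to 9.23 in set 2 (SD 0.92). Lymphomas D161, D48, D57 and D62 led it, lymphoma D46 came next at 1.62 above its set mean, and lymphoma D72 had rank 9 at 0.49.

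Egr1 and Nras did not share this order. Egr1, an immediate early zinc finger factor, varied as widely as Dusp6, from 6.51 through 8.36 to 11.23 in set 1 and from 7.38 through 7.78 to 10.43 in set 2 (SD 1.47, above 98.3% of genes). Its highest lymphoma was D117, and none of the 5 lymphomas was among its top 5: they lay between -0.98 and 1.70 around their set mean. Nras, the GTPase at the head of the cascade, ran from 8.40 in lymphoma D92 through 9.15 to 10.05 in lymphoma D34 in set 1 and from 9.30 through 10.12 to 10.48 in set 2, with an SD of 0.37 that exceeded that of 58.2% of genes. The 5 lymphomas sat within -0.08 and 0.10 of their set mean in Nras. The plot of levels by set shows the 5 lymphomas apart in Dusp6, Spred1, Spred2 and Etv5 and inside the range in Nras.

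**Figure D1:**
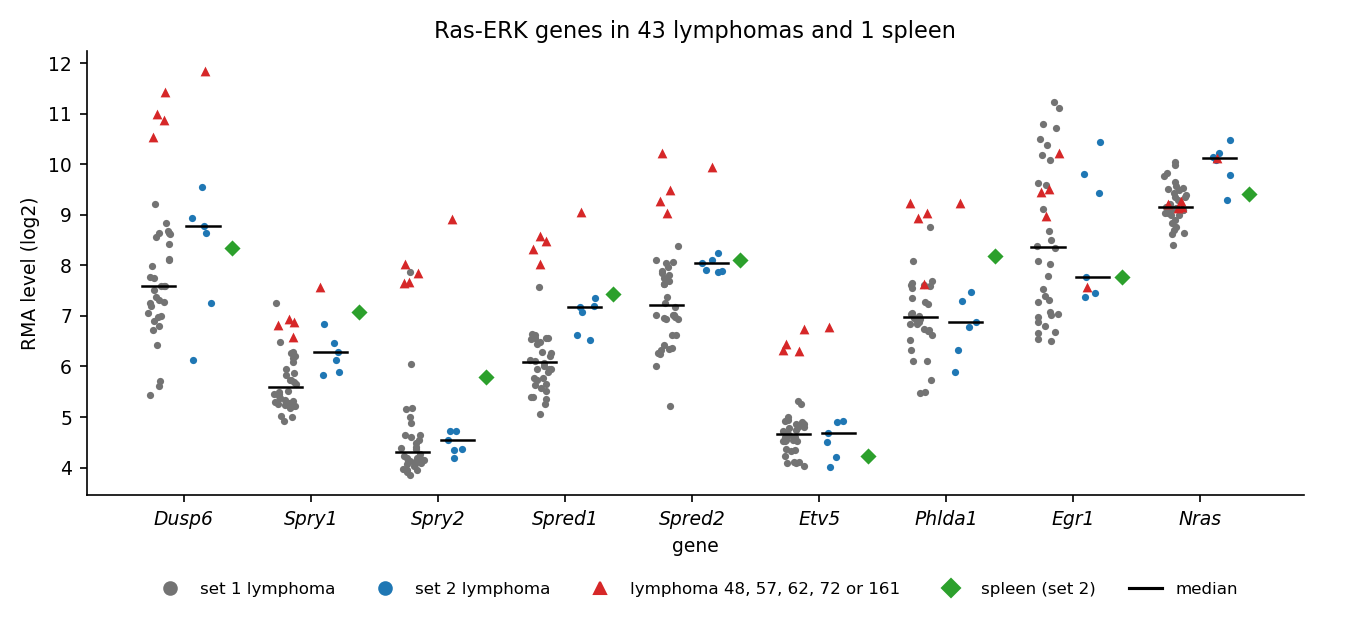
RMA level (log2, y axis) of 9 genes (x axis) in each set 1 lymphoma (grey), set 2 lymphoma (blue) and the spleen (green diamond), with the median of each set as a bar; Spry2 and Etv5 are shown on their more variable probe set. Lymphomas D48, D57, D62, D72 and D161 (red triangles) were picked out by these values. They lie above the other 38 in Dusp6, Spred1, Spred2 and Etv5 within each set, and in the middle of the range in Nras.

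Counted over genes, each on its probe set with the highest mean, lymphoma D48 was among the top 5 in 7 of the 9 genes, lymphomas D57, D62 and D161 in 6 and lymphoma D72 in 5. Of the 5, lymphoma D161 belongs to set 2 and the other 4 to set 1. They were picked out by these values, so nothing is tested on them as a group. A 2-component mixture split Spred1 into 37 lymphomas and 6, the 5 with lymphoma D59, and Etv5 into 39 and 4, namely D48, D57, D62 and D72. For Dusp6 the mixture put exactly the 5 in the upper component, but the gain in BIC of 4.36 was below the limit of 10 set for calling 2 clusters. The heat map ordered by Dusp6 sets the levels of the other genes beside it.

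**Figure D2:**
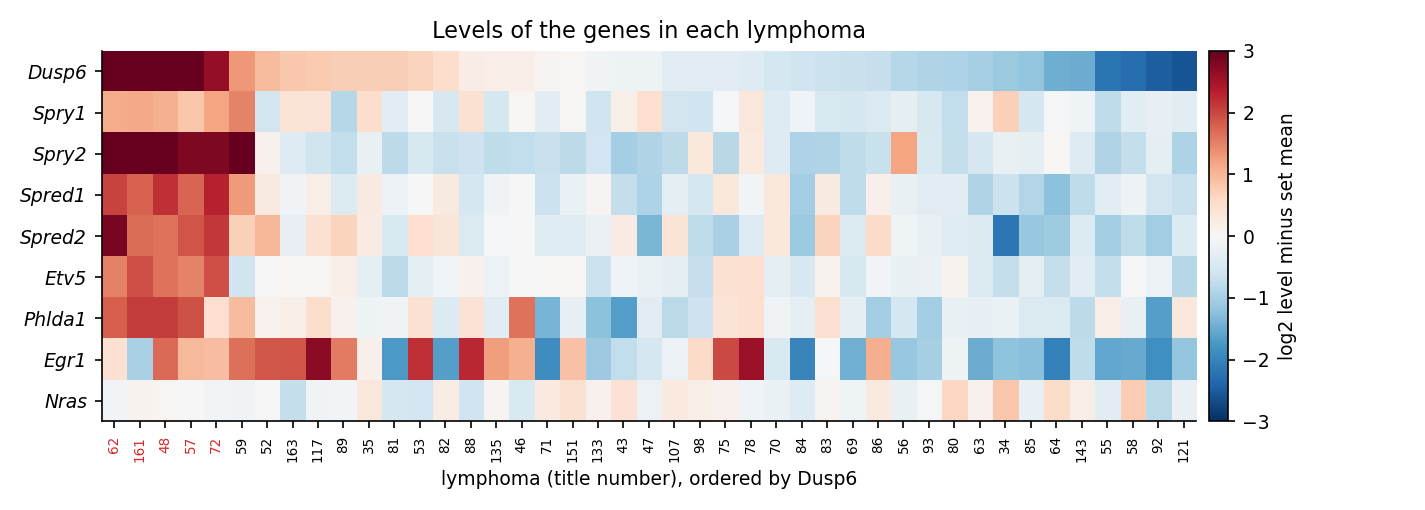
Set-centred log2 level (colour, saturated at 3 in either direction) of 9 genes (rows) in 43 lymphomas (columns, title numbers), ordered from the highest to the lowest Dusp6. The 5 columns at the left, lymphomas D62, D161, D48, D57 and D72, lie 2.64 to 3.53 above the set mean in Dusp6 and between -0.08 and 0.10 in Nras.

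The next question was whether the genes rise and fall together beyond these lymphomas. Over all 43 lymphomas, 19 of 36 pairs of the 9 genes passed a two-sided permutation test of Pearson's r (100000 permutations within the sets, Benjamini-Hochberg over the 36 pairs), all 19 positive, and 20 had an unadjusted p under 0.05. As background, 9.5% of all 37945116 pairs of genes had an r at or above 0.385, the lowest r among the 19. The median r was 0.397 for the 36 pairs and 0.00385 for all pairs of genes. No pair with Nras passed, and of the 21 pairs with neither Nras nor Egr1 15 did. No count is given for the most variable probe sets, since those of Spry2 and Etv5 exceeded the median of their set on only 6 and 4 arrays, all of them high lymphomas.

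The pairs were also counted without the high lymphomas. These were picked for high levels of the same genes, and the 37 lymphomas below were separated on Spred1 itself, so leaving them out narrows the range and by itself lowers r, and the lower counts are a description. Without lymphomas D48, D57, D62, D72 and D161, 7 pairs were positive and 1 negative among those that passed. Within the 37 lymphomas of the lower Spred1 component the counts were again 7 and 1 (background 6.87% for the positive ones), and the median r of the 36 pairs was -0.0208. Because Spred1 and Etv5 fell into 2 clusters, no r over all 43 lymphomas is given for their pairs.

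Dusp6 and Spred2 moved together in both views. Over 43 lymphomas r was 0.812 (Spearman's rho 0.714, both permutation p = 1e-05, the smallest that these permutations can give; adjusted p = 6e-05 and 0.00012), it was 0.748 without the 2 lymphomas farthest from the median of Dusp6, 0.828 in set 1 and 0.824 in set 2. In the 37 lymphomas it was 0.53 (rho 0.564; adjusted permutation p = 0.00288). Spred1 followed both genes within the 37 lymphomas, with r = 0.619 to Spred2 (rho 0.636; adjusted permutation p = 0.00288) and 0.447 to Dusp6 (rho 0.494; adjusted permutation p = 0.0264). All 3 pairs of Dusp6, Spred1 and Spred2 thus passed among the lymphomas outside the upper component.

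For Spry1 and Phlda1 the pairs with Dusp6 passed over 43 lymphomas and missed the threshold over the 37. Dusp6 correlated with Phlda1 at r = 0.665 (rho 0.54; adjusted permutation p = 6e-05), 0.681 within set 1, 0.606 within set 2 and 0.555 with the 2 farthest lymphomas left out. It correlated with Spry1 at r = 0.654 (rho 0.436; adjusted permutation p = 0.000103), 0.639 within set 1, 0.738 within set 2 and 0.559 with the 2 farthest left out. Within the 37 the r was 0.244 (adjusted permutation p = 0.29) for Phlda1 and 0.199 (adjusted permutation p = 0.392) for Spry1. For the variable Spry2 probe set, chosen after the values were seen, the r with Dusp6 was 0.735 over 43 lymphomas and -0.0166 over 37, given as a description. The most negative r over 43 lymphomas was that of Spry2 with Egr1 (-0.293, adjusted permutation p = 0.104), which within the 37 was -0.456 (adjusted permutation p = 0.0264), the only negative pair that passed there. It came from the Spry2 probe set that never passed the median of its set, and on the variable one the r over the 37 was 0.0861. Spry1 with Spred2 went from 0.44 over 43 lymphomas to -0.287 over 37, where it did not pass.

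Egr1 passed with Dusp6 in both views. Its r with Dusp6 was 0.48 over 43 lymphomas (rho 0.563; adjusted permutation p = 0.0027), 0.591 without the 2 farthest, 0.535 in set 1 and 0.582 within the 37 (rho 0.553; adjusted permutation p = 0.00288). Egr1 with Phlda1 stood at 0.466 (rho 0.535; adjusted permutation p = 0.00425) over 43 lymphomas, 0.457 without the 2 farthest, 0.569 in set 1 and 0.532 within the 37. Within the 37 it also passed with Spred1 (r = 0.525) and with Spred2 (r = 0.448). With Etv5 it had an r of 0.283 there and did not pass, and on the variable Etv5 probe set the r was 0.652, given as a description. In set 2 alone, with 7 lymphomas, the r of Egr1 was 0.219 with Dusp6 and -0.102 with Phlda1, and no pair of any genes passed there, although 10 had an unadjusted p under 0.05 by the exact permutation test.

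**Figure D3:**
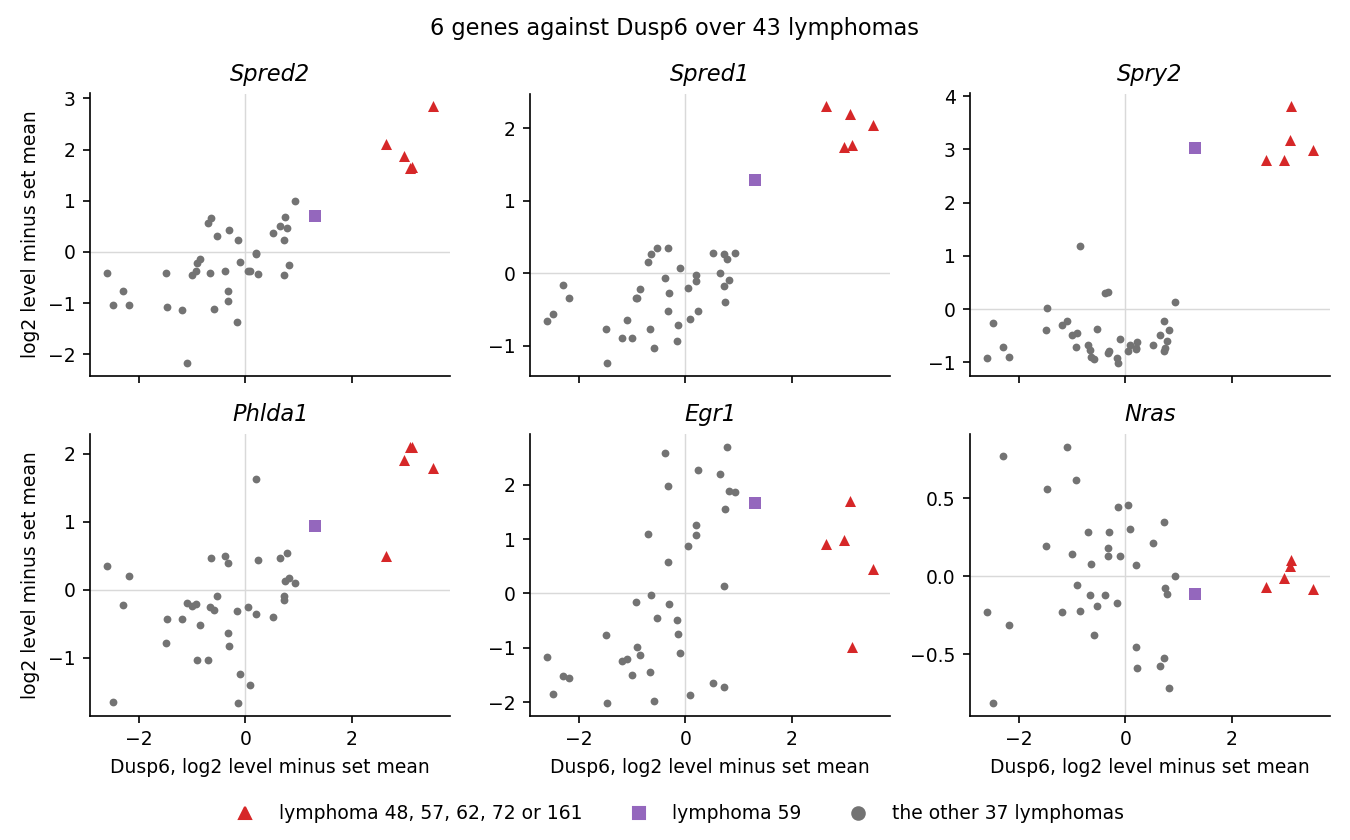
Set-centred log2 level of 6 genes (y axes) against that of Dusp6 (x axes), 1 point per lymphoma. Red triangles are lymphomas D48, D57, D62, D72 and D161, the purple square is lymphoma D59, and the grey points are the other 37, in which Spred2, Spred1 and Egr1 passed with Dusp6 (r = 0.53, 0.447 and 0.582); Spry2 is on its more variable probe set.

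To place the 9 genes among all others, every gene was regressed on Dusp6 with limma, with the set as a covariate. A positive slope passed for 235 of 8711 genes (2.70%) and a negative slope for 152 (1.74%), against 250 and 29 with no set covariate. Of the 7 other genes kept by the filter, 6 were among the 235, all but Nras. Spred1 and Spred2 had the 2 largest statistics of all genes, with slopes of 0.49 ± 0.05 (SE) and 0.55 ± 0.06 (SE) log2 units per log2 unit of Dusp6 (limma adjusted p = 7.4e-08 and 8.7e-08), and Nras had -0.02 ± 0.04 (adjusted p = 0.833). Without the 5 lymphomas, 3 of the 7 passed (Spred1, Spred2 and Egr1; background 2.09%), and within the 37 lymphomas 2 (Spred2 and Egr1; background 1.37%).

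Several other genes came next. Patj, a cell polarity scaffold, followed with a slope of 0.58 ± 0.07 (SE), from levels of 3.27 to 8.24 in set 1, and Cntln, a centriole protein, with 0.37 ± 0.05. Elk3, an ETS factor that ERK phosphorylates, had 0.59 ± 0.08 (limma adjusted p = 3.2e-06) and Jak1, a cytokine receptor kinase, 0.26 ± 0.04. Tmem121, the adhesion receptor Adgrg3, the BCL2 family gene Bok and Frmd6 completed the 10 highest. The 5 most negative were Adam19, a metalloprotease (-0.51 ± 0.08), Zdhhc8, Angptl4, Fgd2 and Cenpv. Within the 37 lymphomas the slope of Adgrg3 was -0.0156, and the r of Patj with Dusp6 went from 0.778 to 0.326.

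The same fit was made on the other genes. On Phlda1 6 of 7 passed (all positive; background 3.43%), on Spred1 5 (2.03%), on Spry1 4 (3.11%), on Spred2 4 (1.69%) and on Etv5 4 (1.23%). The fits on Spred1 and Etv5 over 43 lymphomas span 2 clusters. Within the 37 the counts were 1 on Phlda1 (11.6%), 1 on Spred1 (0.505%), 0 on Spry1 (0.402%), 1 on Spred2 (0.574%) and 0 on Etv5 (0%). The closest other genes, by r over the 43 lymphomas, were the endothelial TGF-beta co-receptor Eng, Gna12 and Abcg2 for Spry1 (0.797, 0.783 and 0.752) and Jak1, Cd302 and Stat4 for Phlda1 (0.806, 0.745 and 0.734). Within the 37 lymphomas Jak1 had an r of 0.687 with Phlda1 and Eng one of 0.422 with Spry1. On its variable probe set Spry2 was closest to Adgrg1, Adgrg3 and Vpreb1 (0.863, 0.86 and 0.859), the last of which encodes part of the surrogate light chain of the precursor B cell receptor.

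Genes of the pathway outside the 10 were taken from fixed lists. Of 18 other ERK response and feedback genes that passed the filter, 4 had a called positive slope (2.70% of all genes had one) and 0 a negative one (1.74% of all genes): Dusp7, another ERK phosphatase (0.23 ± 0.04 SE), Etv4, an ETS factor related to Etv5 (0.18 ± 0.04), Epha2 (0.15 ± 0.04) and Ier2 (0.15 ± 0.04). The median slope of the 18 was 0.0802, against -0.00442 for all genes. In each of the next lists at most a single gene passed: of 11 genes of the RAS, RAF, MEK and ERK cascade 1 (Elk3), of 8 exchange factors and adaptors 0, and of 8 RAS GTPase activating proteins 1, Rasa2 (0.15 ± 0.04 SE; limma adjusted p = 0.0176).

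The mean of the 8 GTPase activating protein genes had its 5 highest values in the 5 lymphomas, with D62 first, then D161, D57, D72 and D48, at 0.332 to 0.78 above the set mean. Its r with Dusp6 was 0.691 over 43 lymphomas (rho 0.545; adjusted permutation p = 0.000244 over 171 relations of 9 genes with 18 list scores and Myc), 0.684 within set 1, 0.742 within set 2, 0.653 with the 2 farthest left out and 0.257 within the 37, where it did not pass. The other pathway lists did not put the 5 on top. By the other ERK response genes D48, D57, D62, D72 and D161 had ranks 7, 22, 20, 6 and 18 of 43. By immediate early genes without Egr1 the ranks were 22, 33, 42, 13 and 25. By the cascade genes they were 13, 12, 4, 21 and 8, and by the exchange factors and adaptors 36, 20, 12, 38 and 1.

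Markers of B cell stage also moved with these lymphomas. The precursor B cell score is the mean of 13 genes, among them the recombinase gene Rag1 and the surrogate light chain genes. By it lymphomas D161, D62, D48, D57 and D72 had ranks 1, 2, 3, 4 and 6 of 43. By the mature B cell score (10 genes) they had ranks 40, 43, 37, 38 and 25 in the same order. The macrophage score put them between rank 19 and 41 and the stroma score between 10 and 39. By the erythroid score D48, D57, D62, D72 and D161 had ranks 7, 6, 15, 16 and 8, at 0.27, 0.27, 0.02, 0.02 and 0.26 above their set mean. By the neutrophil score their ranks were 16, 5, 29, 17 and 36. Lymphoma D59 was the highest of all in the macrophage, stroma, interferon and erythroid scores. By the precursor B cell score it had rank 7 and by the mature B cell score rank 41. With the T cell, macrophage and stroma scores held fixed, 25 of the 36 pairs passed, against 19 without. In that setting 6 of the 7 other genes kept by the filter had a called positive slope on Dusp6 (4.21% of all genes had one). The part of cell stage in the levels of the feedback genes was not tested, nor otherwise that of other cells.

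The precursor score correlated with Dusp6 over 43 lymphomas (r = 0.555; adjusted permutation p = 0.00252; rho 0.148, not past the threshold; 0.522 within set 1, 0.662 within set 2 and 0.352 with the 2 farthest left out), and 8 of its 13 genes had a called positive slope on Dusp6 (2.70% of all genes). Within the 37 lymphomas 0 of the 13 passed, with an r of -0.231. There Dusp6 went with the mature B cell score instead (r = 0.539; adjusted permutation p = 0.00289), with the mean of 9 B lineage markers (r = 0.608; adjusted permutation p = 0.00137) and with the other ERK response genes (r = 0.496; adjusted permutation p = 0.00943). A 2-component mixture of that B lineage mean put 4 lymphomas, D55, D59, D92 and D121, in its lower component, not called a cluster. D55, D92 and D121 are among the 37 and stood at -2.18, -2.47 and -2.60 in Dusp6. Lymphoma D58, of the upper component, stood at -2.29. The r without D55, D92 and D121 is not given here. Spred2 had an r of 0.632 with the mature score in these 37 lymphomas. These values are given side by side, and no difference between the 2 views was tested. Phlda1 had its highest r with the cascade genes, 0.672 (rho 0.732; adjusted permutation p = 0.000244), 0.675 within set 1, 0.716 with the 2 farthest left out and 0.666 within the 37. Spry1 had its highest r with erythroid markers, 0.606 (rho 0.57; adjusted permutation p = 0.000611), 0.581 within set 1, 0.5 with the 2 farthest left out and 0.496 within the 37. No lymphoma had more than 2 of the 10 erythroid markers above the median of its set, so this score rests on low signal. The part of such cells in the Spry1 level was not tested.

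**Figure D4:**
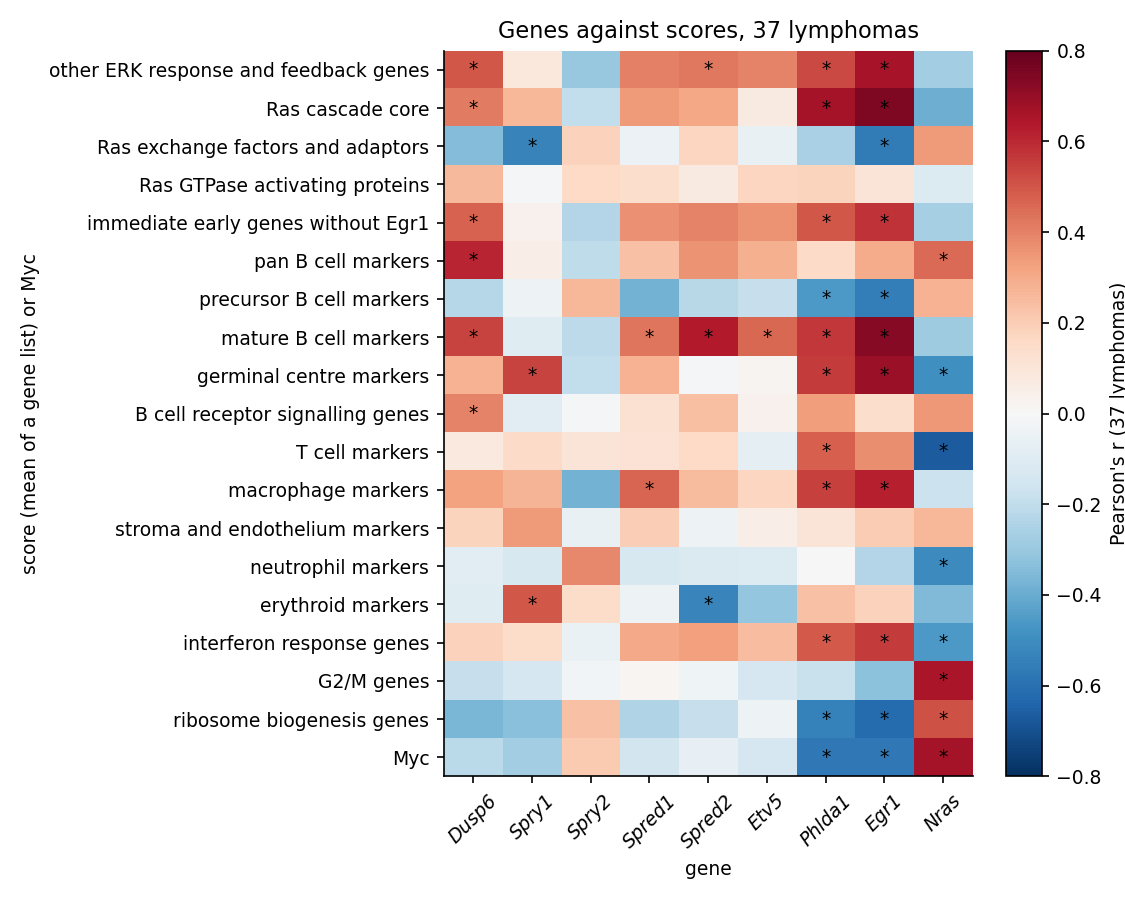
Pearson's r (colour) between 9 genes (columns, each on its probe set with the highest mean) and 18 gene list scores and Myc (rows) over the 37 lymphomas of the lower Spred1 component. Asterisks mark an adjusted permutation p under 0.05 over the 171 relations; Egr1 and Phlda1 have an r of 0.749 and 0.666 with the cascade genes.

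Many genes followed Egr1. In the regression on Egr1 1145 genes (13.1%) had a called positive slope and 1544 (17.7%) a negative one, against 771 and 593 with no set covariate. The 4 of 7 members among the positive ones stand against this background. Without lymphomas D55, D59, D92 and D121, the lower component of the B lineage score, 2 of 7 members passed. In that setting 15.3% of all genes had a called positive slope. The closest genes were Nab2, which encodes a corepressor that EGR factors induce (r = 0.91 over 43 lymphomas, 0.937 over the 37), Hif1a (0.836 and 0.866) and Egr2 (0.829 and 0.91). Of the 18 other ERK response genes 7 were positive, Egr2, Dusp1, Klf6 and Junb foremost, and 1 was negative. Of the 11 cascade genes 7 were positive, among them Map2k1, which encodes MEK1 (0.19 ± 0.03 SE per log2 unit of Egr1), and 1 was negative. Of the 8 exchange factors and adaptors 1 was positive, Grb2 (0.16 ± 0.03 SE), and 2 were negative. These were the exchange factors Rasgrp2 (-0.46 ± 0.08 SE; limma adjusted p = 7.1e-05) and Sos2 (-0.11 ± 0.04 SE).

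Markers of other cells and states moved with Egr1 as well. The macrophage score had an r of 0.576 with Egr1 over 43 lymphomas and 10 of its 16 genes were called positive, the interferon score had 0.487 with 7 of 9, and the germinal centre score had 0.601 with 3 of 3. Against it ran Myc (r = -0.555) and ribosome biogenesis (r = -0.583, 11 of 15 genes called negative; adjusted permutation p = 0.000748 and 0.000395). With the 2 farthest lymphomas left out the r with macrophage markers was 0.541 (0.55 within set 1 and 0.754 within set 2), that with Myc -0.48 (-0.59 and -0.355) and that with ribosome biogenesis -0.524 (-0.61 and -0.387). When the T cell, macrophage and stroma scores were held fixed, 320 genes (3.67%) were positive and 328 (3.77%) negative, and 3 of 7 members passed. Their part in the result was otherwise not tested.

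Nras passed with none of the feedback genes: 0 of 8 pairs passed the permutation test (0 with an unadjusted p under 0.05), with r between -0.204 and -0.0306. In the limma fit on Nras, followers were many, 1668 positive (19.1%) and 911 negative (10.5%) (5273 and 114 with no set covariate), with 0 of the 7 members among either. Of the 10 most positive genes 7 lie on chromosome 3, as Nras does by the GRCm38.p6 annotation: the splicing regulator Rsrc1 (slope 0.91 ± 0.11 SE), Rpf1 (0.81 ± 0.10), Rbm8a, Dhx36, Larp7, Gnai3 and Chtop. The others were the caspase-activated DNase inhibitor Dffa (the closest gene by r, 0.815), Cenpq and Nme7. The 5 most negative were Il18r1 (-1.44 ± 0.23), Xcl1, Dap, Dtx3 and Sema4a, of which Il18r1 and Xcl1 are known from T and NK cells. Sema4a (-1.72 ± 0.28) also lies on chromosome 3.

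Chromosome 3 had the highest share of positive genes of 20 chromosomes, 155 of 430 (36%), followed by chromosome 5 with 29.3%, and chromosome 13 had the lowest with 1.97%. The mean level of its tested genes had an r of 0.496 with Nras, the highest of the 20, with 0.527 in set 1 and 0.265 in set 2. An r of this size also occurred with chromosomes other than the gene's own. Dusp6, on chromosome 10, had 0.607 with the mean of chromosome 12. Egr1, on chromosome 18, had 0.685 with the mean of chromosome 6. Spry1, on chromosome 3 like Nras, had an r of -0.0423 with Nras and 0.642 with the mean of chromosome 12. Among pathway genes the adaptor Shc1, also on chromosome 3, had a slope of 0.39 ± 0.07 SE on Nras (limma adjusted p = 7.3e-05), and the Ras relatives Rras2 (-1.49 ± 0.36) and Rras (-0.75 ± 0.23) ran the other way.

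**Figure D5:**
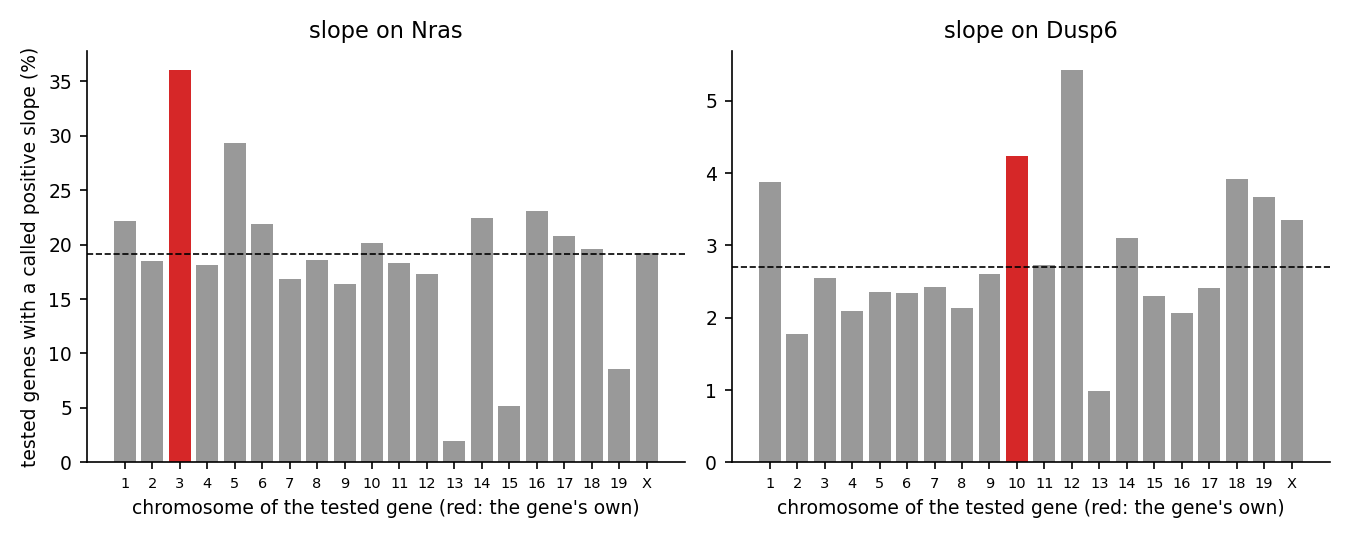
Share of tested genes on each chromosome (x axis) with a called positive slope (y axis, percent) in the regression on Nras (left) and on Dusp6 (right), with a dashed line at the share over all chromosomes and the gene's own chromosome in red. Chromosome 3 stands at 36% against 19.1% overall for Nras.

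Markers of other cells and of growth moved with Nras too. Its r was 0.654 with Myc (rho 0.672), 0.603 with G2/M genes (rho 0.559) and 0.477 with ribosome biogenesis genes (rho 0.434), and -0.641 with T cell markers (rho -0.696) and -0.492 with neutrophil markers (rho -0.524), with adjusted permutation p between 0.000244 and 0.00831. With the 2 farthest lymphomas left out the r with Myc was 0.57 (0.613 within set 1 and 0.875 within set 2) and that with T cell markers -0.652 (-0.605 and -0.85). Of 12 T cell markers 10 were called negative and of 14 G2/M genes 11 positive. With the T cell, macrophage and stroma scores held fixed, 264 genes (3.03%) were positive and 59 (0.677%) negative. Without the set covariate chromosome 3 had 65.1% against 60.5% of all genes and came behind 2 others. With the scores held fixed chromosome 3 again had the highest share, 75 of 430 genes (17.4%), and the next was chromosome 16 with 5.17%.

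In the spleen, the only sample labelled as another tissue, none of the 8 genes passed the test against the lymphomas. The spleen values were 8.34 for Dusp6, 7.08 for Spry1, 7.43 for Spred1, 8.10 for Spred2, 5.73 for Etv5, 7.76 for Egr1, 8.20 for Phlda1 and 9.41 for Nras. Of the 7 lymphomas of its set, 6 lay below it in Spry1, Spred1 and Phlda1, 5 in Spred2, 3 in Egr1, 2 in Dusp6, 1 in Nras and 0 in Etv5. In the limma fit 662 genes (7.60%) were called higher in the spleen and 505 (5.80%) lower. This balance turned with the scaling and the filter: it was 599 and 788 with equal column medians, 328 and 434 with a filter at 25% of arrays, and 1127 and 41 with no set covariate. Of the 8 members 0 were called in either direction and 0 had an unadjusted p under 0.05. The differences were 1.07 ± 0.96 (SE) for Phlda1, 0.65 ± 0.64 for Spry1, -0.39 ± 1.53 for Dusp6 and -0.61 ± 0.40 for Nras, which had the lowest adjusted p of the 8, 0.317. With 1 spleen the test assumes that it varies as the lymphomas do, and standard errors of this size leave differences of several fold undetectable. Among the other pathway genes Gab1, a docking adaptor (1.74 ± 0.56 SE; limma adjusted p = 0.0313), and Zfp36, an mRNA decay factor (1.27 ± 0.43; adjusted p = 0.0437), passed this test, whose error comes from the lymphomas alone because the spleen has no replicate.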

How the data were processed

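The deposited values are on the log2 scale, 1 for each probe set and array, from RMA as run in the affy package per the submitters' processing notes, with no versions and no genome build given in the sources used here. There were 22690 probe sets, including 64 controls. Of the remainder, 20380 had 1 gene symbol in the platform annotation and were used, and those with several symbols (691) or none (1555) were left out. Each gene was represented by its brightest probe set on average, and genes that exceeded the median of the set on none of the 44 arrays were dropped. Arrays have no read depth, so the number of arrays limits the precision.

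Regressions and the spleen comparison used limma 3.58.1 in R 4.3.3 (eBayes with an intensity trend, two-sided, set as covariate, Benjamini-Hochberg over all genes kept, threshold 0.05). Pearson's r and Spearman's rho of set-centred values were tested with 100000 permutations within the sets, adjusted over the 36 pairs or the 171 relations of genes with scores. In set 2 alone all orders of the 7 lymphomas were used. Clusters were called where a mixture of 2 components (mclust 6.1.1) gained over 10 in BIC, separated well by Ashman's D and left no nearly empty component. A score averages the set-centred levels of those genes of a list that passed the filter. The scripts were tested on simulated data. The genes, lists and tests were chosen with earlier results of these data known. Named genes are all members, the 10 most positive and 5 most negative genes on Dusp6 and on Nras, the 3 closest genes of each member, up to 4 genes of each pathway list, the largest and most negative pairs and scores, and some Egr1 followers chosen after their values were seen. The other alternatives concerned the filter, probe set choice, array scaling, the set, the intensity trend and lymphomas left out. The largest-SD probe set, the fits without lymphomas D48, D57, D62, D72 and D161 and those within 37 lymphomas were added after seeing the data. Gene symbols and chromosomes come from the GRCm38.p6 annotation by Entrez identifier, which 20351 probe sets matched.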

Additional observations from a re-analysis of the deposited data

How the results depend on the processing

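The pairs of members called went from 19 to 8 without lymphomas D48, D57, D62, D72 and D161, to 8 within the 37 lymphomas of the lower Spred1 component and to 0 in set 2 alone (7 lymphomas), where the score relations called also went from 45 to 0. The members called in the regression on Dusp6 went from 6 to 3 and 2 in the first 2 of these settings. In other settings the pairs called went up to 25 of 36 with the T cell, macrophage and stroma scores held fixed and down to 14 by Spearman's rho. With the mean of all probe sets they were 27, but that mean takes in the variable Spry2 and Etv5 probe sets, which exceeded the median of their set only in high lymphomas. The genes called went from 387 to 176 (set 1 alone) and 661 (T cell, macrophage and stroma scores held fixed) on Dusp6, from 2579 to 5387 (no set covariate), 1551 (set 1 alone) and 323 (scores held fixed) on Nras, and from 1167 to 762 in the spleen with a filter at 25% of arrays. Signs turned for 14 single values. Without the 5 lymphomas r was -0.0984 for Spry1 and Spred2, -0.337 for Spry1 and Etv5, -0.0383 for Spred1 and Etv5 and -0.086 for Etv5 and Phlda1. Within the 37 it was -0.0977 for Spry1 and Spred1, -0.287 for Spry1 and Spred2, -0.222 for Spry1 and Etv5 and -0.00711 for Etv5 and Phlda1, and the slope of Adgrg3 on Dusp6 was -0.0156. In set 2 alone Egr1 had -0.147 with Spred1, -0.257 with Spred2, -0.102 with Phlda1 and -0.014 with the cascade score. With the largest-SD probe set the r of Spry2 with macrophage markers was 0.0245. Of the other single values 690 kept their direction and side of the threshold and 102 kept the direction but missed the threshold, 29 of these in set 2 alone, 25 within the 37 lymphomas and 24 without the 5. The cause was not tested, except that the smaller settings hold fewer lymphomas. No paired analysis was possible because the lymphomas and the spleen share no replicate number.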
